A study of Mus musculus with 28 samples.

Results

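The genes described here are the 9 brake and accelerator genes of the G1 phase of the cell cycle: the Cip/Kip Cdk inhibitors Cdkn1a (p21) and Cdkn1b (p27), the Ink4 inhibitors Cdkn2a, Cdkn2b (p15), Cdkn2c (p18) and Cdkn2d (p19), and the D-type cyclins Ccnd1, Ccnd2 and Ccnd3. They were picked by symbol from the 37583 genes of the deposited expression tables. All 9 had a row, 1 row per symbol, and all 9 passed the filter on low values in each comparison. The values are RPKM, read counts scaled to exon length and library size, so that levels can be compared between genes of different length.

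Total RNA, depleted of ribosomal RNA, was sequenced from 28 libraries of mouse embryonic stem cells (mESC) and of embryoid bodies (EB) at day 5 after LIF was withdrawn. In the CJ7 line, 4 groups had 2 mESC and 2 EB libraries each: Eed null, EloA K754M, EloA K754R and wild type. Eed is a core subunit of PRC2, the complex that methylates lysine 27 of histone H3, and K754M and K754R replace 1 lysine of Elongin A, a factor of transcript elongation whose gene is listed as Tceb3. In the CCE line (CCE28 in the growth protocol), EloA null and wild-type mESC had 3 libraries each, and the EB libraries fell into 2 mutant pairs and a wild-type pair. The titles of pair A say EloA null and its column names say heterozygous, and the titles of pair B say EloA+/- and its column names say null, so that neither pair is given a genotype here. The mESC were grown with LIF, serum and both 2i inhibitors (PD0325901 and CHIR99021) on irradiated or mitomycin C treated mouse embryonic fibroblasts, which were depleted by a plating step before lysis. No label ties a replicate to a culture or clone of its own, so the p-values measure the spread between these libraries, which may be technical.

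D-type cyclins bind Cdk4 and Cdk6, and the active kinases phosphorylate the retinoblastoma protein, which releases E2F factors and lets cells enter S phase. Ink4 proteins bind Cdk4 and Cdk6 and keep the cyclin out, whereas Cip/Kip proteins bind cyclin-Cdk complexes and block Cdk2 in particular. The Cdkn2a locus makes 2 proteins from separate first exons, p16Ink4a and p19Arf, of which the second stabilises p53, and p53 in turn activates Cdkn1a. In fibroblasts and other somatic cells the Cdkn2a and Cdkn2b locus is a classic target of Polycomb repression. Mouse embryonic stem cells are commonly described as having a short G1 phase. The RNA levels here do not measure the length of G1, and these mESC were grown with both 2i inhibitors. The Cdkn2a row counts exons that both products share, so it cannot tell p16Ink4a from p19Arf.

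Cdkn2a and Cdkn2b lie next to each other on chromosome 4. Their promoters are shown because both genes had higher levels in Eed null EB, beside that of Cdkn1b, which was lower there. Each stretch runs from 250 bases before to 50 after a RefSeq start on build GRCm38.p6, which is not the mm9 build named for the files, and CpG dinucleotides are in capitals. RefSeq promoters were found for 7 of the 9 genes, with 11 starts, and not for Ccnd1 and Ccnd2.
Cdkn2a upstream start, chr4:89294570-89294869, minus strand: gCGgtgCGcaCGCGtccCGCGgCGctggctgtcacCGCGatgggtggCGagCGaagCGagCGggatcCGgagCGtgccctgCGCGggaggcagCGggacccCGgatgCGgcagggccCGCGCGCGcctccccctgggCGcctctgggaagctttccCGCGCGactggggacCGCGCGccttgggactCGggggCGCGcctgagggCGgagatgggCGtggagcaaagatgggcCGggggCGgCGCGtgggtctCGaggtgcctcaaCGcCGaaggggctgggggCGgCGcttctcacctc
Cdkn2a inner start, chr4:89282143-89282442, minus strand: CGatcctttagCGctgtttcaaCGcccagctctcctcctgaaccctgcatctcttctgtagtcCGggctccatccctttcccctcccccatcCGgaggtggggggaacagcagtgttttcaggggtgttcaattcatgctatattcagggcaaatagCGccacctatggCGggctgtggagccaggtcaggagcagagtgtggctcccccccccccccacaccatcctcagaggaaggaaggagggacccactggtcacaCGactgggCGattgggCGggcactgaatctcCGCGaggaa
Cdkn2b, chr4:89310983-89311282, minus strand: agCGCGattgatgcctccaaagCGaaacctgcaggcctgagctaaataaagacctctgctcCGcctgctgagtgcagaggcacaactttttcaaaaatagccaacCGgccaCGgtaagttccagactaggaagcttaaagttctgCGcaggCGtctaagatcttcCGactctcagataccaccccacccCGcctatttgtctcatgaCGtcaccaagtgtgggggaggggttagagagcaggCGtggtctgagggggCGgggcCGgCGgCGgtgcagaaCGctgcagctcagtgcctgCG
Cdkn1b, chr6:134920151-134920450, plus strand: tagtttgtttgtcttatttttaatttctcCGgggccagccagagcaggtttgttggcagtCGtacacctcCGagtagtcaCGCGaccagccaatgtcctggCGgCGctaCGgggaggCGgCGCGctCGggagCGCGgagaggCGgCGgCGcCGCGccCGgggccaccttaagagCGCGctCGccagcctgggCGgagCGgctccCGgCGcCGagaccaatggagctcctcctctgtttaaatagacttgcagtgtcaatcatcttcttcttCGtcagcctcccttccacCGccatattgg
The upstream Cdkn2a start, the one of the p19Arf first exon, had 45 CpG dinucleotides in its 300 bases, against a median of 7 over 32851 promoters of that length, and 98.1% of those had fewer. The inner Cdkn2a start, that of p16Ink4a, had 12, the Cdkn2b promoter had 18 and the Cdkn1b promoter had 30. Motifs were searched on both strands and counted without regard to overlap with one another. GGGCGG, the core of a GC box, had 3 matches at the upstream Cdkn2a start and 1 each at the inner Cdkn2a, the Cdkn2b and the Cdkn1b starts, and 35.7% of all promoters had at least 1. CCAAT had 3 matches in the Cdkn1b promoter and 1 at the inner Cdkn2a start, against 37.4% of all promoters with a match. TTTCGC, an E2F-type sequence, had 1 match in the Cdkn2b promoter, and 4.0% of all promoters had one. The TATA box TATAAA, which 13.6% of all promoters held, the E-box CACGTG, held by 7.2%, and the AP-1 sequence TGACTCA, held by 5.2%, had no match in these 4 stretches. A match describes these letters and is not a binding site.

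Levels differed widely among the 9 genes, and neither the cyclins nor the inhibitors kept to one range. In the 14 mESC libraries, Ccnd1 ran from 28.4 to 75.4 RPKM with a median of 44.9, Ccnd3 from 22.6 to 52.0 with a median of 35.2, and Ccnd2 from 4.85 to 30.5 with a median of 9.23. Among the inhibitors, Cdkn2a, Cdkn1a, Cdkn1b and Cdkn2b had medians of 14.6, 14.5, 13.5 and 12.3 RPKM, ranges that overlapped widely. Cdkn2c and Cdkn2d were low, with medians of 1.78 and 0.815 RPKM. Cdkn2d rested on 3 to 19 reads per library in CJ7 mESC, so that only large differences in it could be detected there.

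The mESC and EB tables are set side by side without a test, since they are separate tables. In wild-type libraries of both lines, 4 of the 9 genes were lower in EB than in mESC with no overlap of the libraries, the inhibitors Cdkn1a, Cdkn2a, Cdkn2b and Cdkn2c, and 2 of the 9 were higher in this way, Cdkn1b and Cdkn2d. Of 17717 genes compared, 32.2% were lower and 24.5% higher in the same way, so the members' counts lay near those of all genes. Cdkn2b averaged 2.97 RPKM in CJ7 EB and 8.57 in CJ7 mESC, and 1.59 RPKM in CCE EB and 9.84 in CCE mESC. Cdkn1a averaged 6.90 RPKM in CJ7 EB and 17.3 in CJ7 mESC, and 4.98 RPKM in CCE EB and 9.48 in CCE mESC. Cdkn1b ran the other way, with 24.2 RPKM in CJ7 EB and 16.1 in CJ7 mESC, and 27.1 RPKM in CCE EB and 14.4 in CCE mESC. Cdkn2d, the other gene that was higher in EB in both lines, stayed low at each stage. The cyclins followed no common direction: Ccnd1 averaged 18.9 RPKM in CJ7 EB and 36.6 in CJ7 mESC, but 43.7 RPKM in CCE EB and 38.3 in CCE mESC, where the libraries overlapped. Feeder fibroblasts were part of the mESC cultures. The 22 fibroblast markers summed to 201 to 1730 RPKM in mESC libraries and 52.5 to 283 RPKM in EB libraries. None of the 22 was at 0 in 13 of the 14 mESC libraries. The part of fibroblasts in these differences between stages was not tested. Whether the marker RNA in EB came from feeder cells or from cells of the EB themselves was not tested either.

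**Figure D1:**
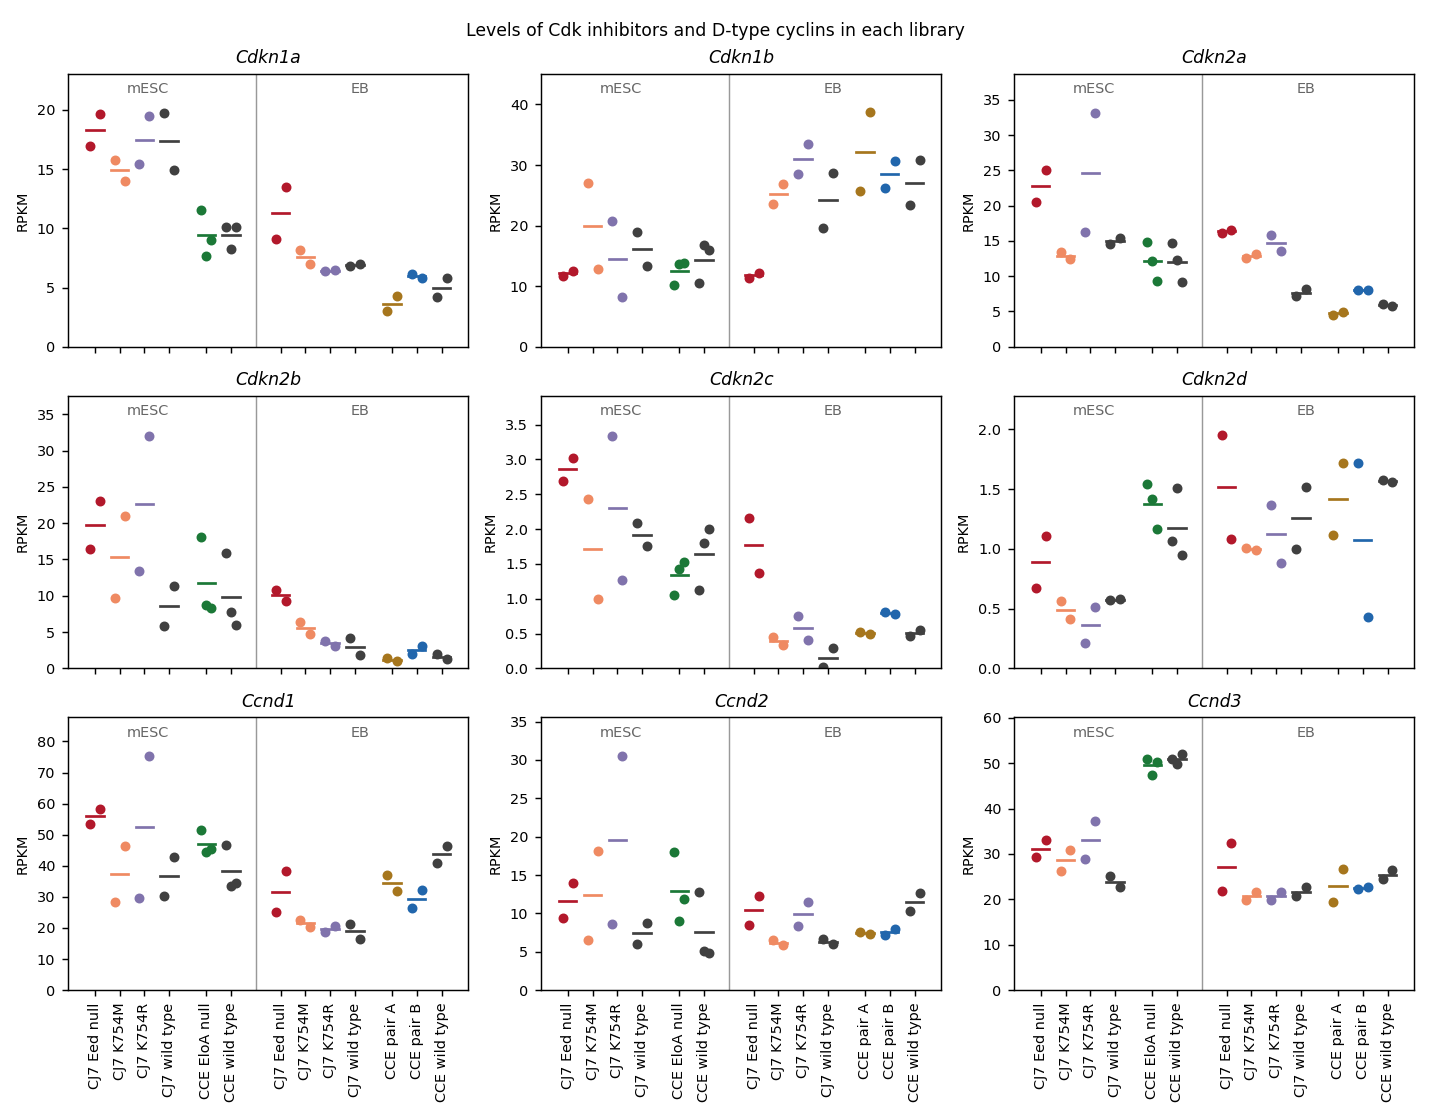
RPKM of each of the 9 genes in each library (points) with the mean of its group (bars), by line and genotype, mESC left of the grey line and EB right of it. In EB, Eed null libraries lay above CJ7 wild type for Cdkn1a, Cdkn2a, Cdkn2b, Cdkn2c, Ccnd1 and Ccnd2 and below it for Cdkn1b, at 11.4 and 12.1 RPKM against 19.6 and 28.8.

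Eed null against wild-type CJ7 EB showed the most change. Of the 9 genes, 5 rose, 1 fell and 3 did not pass the test, limma on log2(RPKM + 0.5) with Benjamini-Hochberg adjustment over all genes at a threshold of 0.05. Among all 19300 genes tested in that comparison, 30.4% were called, 19.2% of them higher and 11.2% lower as shares of the genes tested. The median log2 change was 0.67 over the 9 genes and 0.05 over all genes tested. The libraries of both groups did not overlap for 7 of the 9 genes, against 61.8% of all genes. In bulk RNA, fewer cells of a type and less RNA per cell cannot be told apart, here and in the other comparisons.

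Of the 4 Ink4 genes, 3 rose. Cdkn2a had 16.2 and 16.6 RPKM in Eed null EB, against 7.21 and 8.15 RPKM in wild-type EB. The groups were well apart and each pair of libraries was close together, with a log2 change of 1.05 ± 0.13 (SE) and an adjusted p of 0.00100 by limma. Cdkn2b, whose protein inhibits Cdk4 and Cdk6 and is known as a target of TGF-beta signalling, had 10.8 and 9.28 RPKM in Eed null EB, against 4.13 and 1.81 RPKM in wild-type EB. Its log2 change was 1.69 ± 0.32 (SE, adjusted p = 0.00682 by limma), and the lowest Eed null library was above the highest wild-type one. Cdkn2c had 2.16 and 1.38 RPKM in Eed null EB, from 231 and 129 reads, against 0.0236 and 0.290 RPKM in wild-type EB, from 2 and 25 reads. Its log2 change of 1.80 ± 0.29 (SE, adjusted p = 0.00334 by limma) depended on the pseudocount and ran from 1.25 to 3.06 over the settings tried. Cdkn2d had 1.95 and 1.08 RPKM in Eed null EB, against 1.00 and 1.52 RPKM in wild-type EB; the libraries overlapped and the log2 change was 0.18 ± 0.28 (adjusted p = 0.670 by limma).

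The Cip/Kip inhibitors went opposite ways. Cdkn1a had 9.07 and 13.5 RPKM in Eed null EB, against 6.83 and 6.97 RPKM in wild-type EB. The Eed null libraries were both higher but spread widely, with a log2 change of 0.65 ± 0.19 (SE, adjusted p = 0.0385 by limma). Without Eed null replicate 2 the log2 change of Cdkn1a was 0.37 (adjusted p = 0.121 by limma), and the call was also lost without either wild-type library, with no filter on low values (adjusted p = 0.0615) and with the libraries of the 2 groups alone (adjusted p = 0.102). Cdkn1b had 11.4 and 12.1 RPKM in Eed null EB, against 19.6 and 28.8 RPKM in wild-type EB. It was lower in both Eed null libraries, by a log2 change of -0.98 ± 0.19 (SE, adjusted p = 0.00750 by limma). Its level in Eed null EB was also below those of the other 12 EB libraries, which ran from 19.6 to 38.7 RPKM, and lay in the range of the mESC libraries.

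Of the cyclins, Ccnd1 was called. Ccnd1 had 25.1 and 38.4 RPKM in Eed null EB, against 21.4 and 16.4 RPKM in wild-type EB. The groups did not overlap, and the log2 change was 0.71 ± 0.21 (SE, adjusted p = 0.0407 by limma); without Eed null replicate 2 it was 0.41 (adjusted p = 0.142 by limma), and without wild-type replicate 2 the adjusted p was 0.194. The Ccnd1 call was also lost with no filter on low values (adjusted p = 0.0737 by limma) and with the libraries of the 2 groups alone (adjusted p = 0.0971 by limma). Ccnd2 had 8.53 and 12.3 RPKM in Eed null EB, against 6.62 and 5.95 RPKM in wild-type EB, a log2 change of 0.67 ± 0.21 that missed the threshold (adjusted p = 0.0507 by limma). Ccnd2 was called under 4 other settings and without Eed null replicate 1, at adjusted p-values of 0.0217 to 0.0448 by limma. Ccnd3 had 21.8 and 32.3 RPKM in Eed null EB, against 20.7 and 22.7 RPKM in wild-type EB, with overlap and a log2 change of 0.29 ± 0.18 (adjusted p = 0.282 by limma).

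Cell-type markers moved in the same libraries. The summed level of 14 pluripotent stem cell markers was 1067 and 1019 RPKM in Eed null EB, against 250 and 311 RPKM in wild-type EB, and 12 of these 14 genes rose. The sum of 14 extraembryonic endoderm markers was 380 and 427 RPKM in Eed null EB, against 71.6 and 67.9 RPKM in wild-type EB, with 10 genes higher and 3 lower. Of 12 tested mesoderm markers 1 rose and 9 fell, and the list summed to 164 and 179 RPKM in Eed null EB, against 215 and 241 RPKM in wild-type EB. Of 8 tested trophoblast markers 5 rose and none fell, of 5 neuroectoderm markers 4 rose and none fell, of 9 blood and endothelium markers 3 rose and 4 fell, and of 5 primed epiblast markers 1 fell. Fibroblast markers summed to 52.5 and 59.0 RPKM in Eed null EB, against 98.2 and 74.7 RPKM in wild-type EB, a lower sum in the libraries with the higher Cdkn2a, Cdkn2b and Ccnd1, although 4 of 20 tested markers rose and 4 fell. With the summed fibroblast markers as a covariate, a setting chosen after the data were seen, Cdkn2a, Cdkn2b and Cdkn1b kept their calls. Cdkn1a, Cdkn2c and Ccnd1 were no longer called, at adjusted p of 0.126, 0.103 and 0.0705 by limma, while their log2 changes were 0.90 ± 0.33, 1.56 ± 0.52 and 1.17 ± 0.33 (SE), so those of Cdkn1a and Ccnd1 were larger than without the covariate and all 3 standard errors were wider. The fibroblast marker sums of both groups did not overlap, so covariate and genotype cannot be fully told apart in that fit. The part of the other cell types in the changes of the 9 genes was not tested.

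Around these genes, the lists of partners and targets changed in Eed null EB as follows. Over the 7 lists, 37 of 112 genes were called (28 higher, 9 lower), beside 30.4% of all genes. Of 13 other Cdk inhibitors and genes of their turnover and assembly, 3 rose and none fell, among them Cdkn1c (p57), the third Cip/Kip inhibitor, with 145 ± 13.8 RPKM in Eed null EB and 2.18 ± 0.270 RPKM in wild-type EB (SD, n = 2 each), a log2 change of 5.76 ± 0.19 (SE). Of 24 p53 targets and regulators, 11 rose and none fell, led by Pmaip1 (Noxa, a pro-apoptotic BH3-only protein), with 63.8 ± 8.09 RPKM in Eed null EB and 6.77 ± 0.247 RPKM in wild-type EB (SD, n = 2 each), and by Plk3, a kinase, with a log2 change of 2.35 ± 0.27. Cdkn1a itself belongs to the same pathway as a p53 target. Of 19 genes of the Cdk4/6-Rb axis, 2 rose and 2 fell: Ccne1, the cyclin that activates Cdk2, had a log2 change of 1.46 ± 0.17 and E2f5, a repressive E2F, one of -1.02 ± 0.10. Of 24 S phase and mitosis genes, 4 rose and 1 fell, with Rrm2, a subunit of ribonucleotide reductase, at 0.91 ± 0.21. The list genes named for Eed null EB had adjusted p-values of 0.0162 for Rrm2 and below by limma. The median log2 change was 0.43 over the p53 list, 0.02 over the S phase and mitosis list and 0.01 over the Cdk4/6-Rb list, beside 0.05 over all genes tested. Of 15 known regulators of the Cdkn2a locus, 3 rose and 4 fell; the PRC1 subunit Cbx7 had a log2 change of 2.09 ± 0.27, and Tbx2, a repressor of the locus, had one of -1.44 ± 0.20. Of 13 Wnt, Myc and MAPK genes linked to D-type cyclins, 5 rose and 2 fell, with Etv5 at 2.07 ± 0.22 and the Wnt feedback inhibitor Nkd1 at -1.60 ± 0.17. None of the 4 neighbours of Cdkn2a and Cdkn2b on chromosome 4 with a row was called.

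In K754R against wild-type CJ7 EB, 1 of the 9 genes rose and none fell, while 9.68% of all 19300 genes were called, 4.82% of them higher as a share of the genes tested. The libraries did not overlap for 4 of the 9 genes, against 57.2% of all genes. The called gene was Cdkn2a, with 15.9 and 13.5 RPKM in K754R EB, against 7.21 and 8.15 RPKM in wild-type EB. Both K754R libraries were above both wild-type libraries, and the log2 change was 0.89 ± 0.13 (SE, adjusted p = 0.00939 by limma). Leaving out either K754R library raised the adjusted p above the threshold, to 0.0771 at most by limma. With the fibroblast covariate the adjusted p was 0.496 by limma, at a log2 change of 0.97 ± 0.33. The count called over all genes was 0 with that covariate and 1868 without it, so the lost call was not particular to Cdkn2a. Fibroblast markers summed to 185 and 158 RPKM in K754R EB, against 98.2 and 74.7 RPKM in wild-type EB, and 12 of 20 tested markers rose, in the same libraries as the higher Cdkn2a. Pluripotent stem cell markers summed to 56.7 and 54.2 RPKM in K754R EB, against 250 and 311 RPKM in wild-type EB, and 7 of 14 fell. Of 12 tested mesoderm markers 1 rose and 6 fell, and the part of these cell types in the Cdkn2a result was not tested. Ccnd2 had 8.38 and 11.4 RPKM in K754R EB, against 6.62 and 5.95 RPKM in wild-type EB, a log2 change of 0.60 ± 0.21 that missed the threshold (adjusted p = 0.118 by limma). Cdkn2b did not separate the groups, at 3.83 and 3.12 RPKM in K754R EB, against 4.13 and 1.81 RPKM in wild-type EB.

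In K754M against wild-type CJ7 EB, none of the 9 genes was called at a background of 0.565% of all genes. An unadjusted p below 0.05 by limma was found for 2 of the 9, and for 2934 of all 19300 genes tested. Libraries did not overlap for 3 of the 9 genes, against 49.7% of all genes. Cdkn2a was nearest to the threshold, with 12.6 and 13.2 RPKM in K754M EB, against 7.21 and 8.15 RPKM in wild-type EB. The libraries did not overlap, and the log2 change was 0.72 ± 0.13 (SE, adjusted p = 0.0679 by limma). In a fit of all 14 EB libraries the adjusted p for Cdkn2a was 0.0134 by limma. Fibroblast markers summed to 203 and 156 RPKM in K754M EB, against 98.2 and 74.7 RPKM in wild-type EB, with 1 of 20 tested markers called higher. With their sum as a covariate the log2 change of Cdkn2a was 0.80 ± 0.35 (SE, adjusted p = 0.853 by limma). The sums of both groups did not overlap, so that fit cannot fully tell the covariate from genotype. Cdkn2b had 6.33 and 4.80 RPKM in K754M EB, against 4.13 and 1.81 RPKM in wild-type EB, with a log2 change of 0.88 ± 0.32 (adjusted p = 0.254 by limma). The direction of this Cdkn2b change did not hold under all alternative settings. K754M and K754R EB were compared directly at a background of 3.62% called and 54.6% without overlap. This gave 5 of 9 genes without overlap and no call among the 9 genes. An unadjusted p below 0.05 by limma was found for 1 of the 9, Ccnd2, and for 3694 of all 19300 genes tested. For Cdkn2a the log2 difference of K754M minus K754R was -0.18 ± 0.13. Both substitutions and Eed null were set against the same 2 wild-type libraries, so that the higher Cdkn2a in all 3 comparisons shares its reference values.

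**Figure D2:**
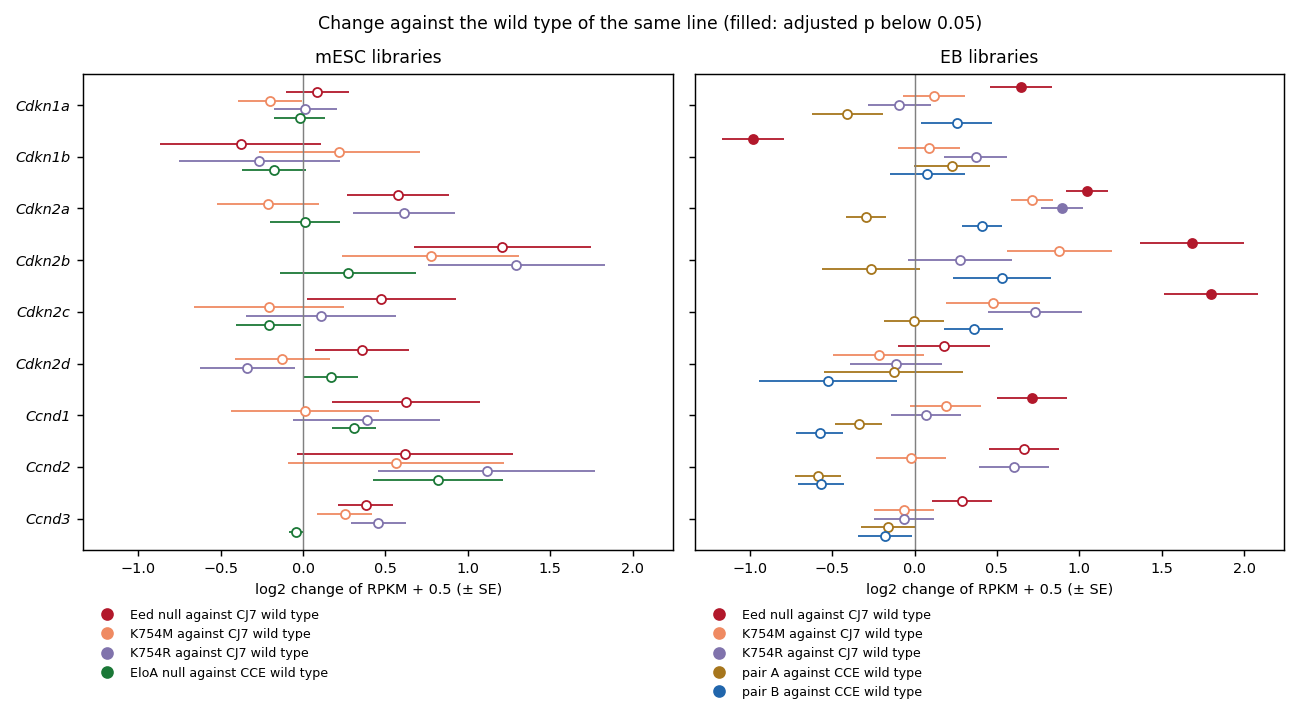
Log2 change of each of the 9 genes against the wild type of the same line with its standard error, in mESC (left) and EB (right); filled points passed the test at an adjusted p below 0.05. In EB the filled points were the 6 of Eed null, from Cdkn1b at -0.98 to Cdkn2c at 1.80, and Cdkn2a of K754R at 0.89.

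Of the lists around the 9 genes, 11 of 112 genes were called in K754R EB (6 higher, 5 lower), beside 9.68% of all genes. In K754M EB 1 of 112 was called, beside 0.565% of all genes. In K754R EB, Cdk4, the partner of the D-type cyclins, was the 1 gene of 19 of its axis that rose, with 243 ± 18.9 RPKM in K754R EB and 164 ± 16.6 RPKM in wild-type EB (SD, n = 2 each). Of 15 regulators of the Cdkn2a locus 3 rose and 1 fell, and Bmi1, the PRC1 subunit known for repressing Cdkn2a, had 12.5 ± 0.435 RPKM in K754R EB and 6.03 ± 1.29 RPKM in wild-type EB (SD, n = 2 each). Cdkn1c rose by a log2 change of 2.14 ± 0.19 in K754R EB and 1.27 ± 0.19 in K754M EB, where it was the 1 gene called in these 7 lists. Pmaip1, which was higher in Eed null EB, was lower in K754R EB by a log2 change of -1.99 ± 0.14. Top2a, a topoisomerase of dividing cells, fell by 0.48 on the log2 scale, and Etv4, a MAPK-induced factor, by 0.99.

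In mESC, no genotype comparison called any of the 9 genes in the reported fits. These fits did not pair libraries by replicate number, and calls with such pairing are given below. The background was 8.59% of 21012 genes for Eed null, 0% for K754M, 0.162% for K754R, 0.00952% for K754M against K754R, and 3.35% of 18460 genes for EloA null in CCE. The number of the 9 genes with an unadjusted p below 0.05 by limma was 2 in K754R against wild type, 1 in K754M against K754R and 0 in the other mESC genotype comparisons. Over all 21012 genes it was 3000 in K754R against wild type and 2114 in K754M against K754R. It was 5484 for Eed null, 2103 for K754M against wild type, and 3282 of 18460 genes for EloA null. For Eed null mESC, 8 of the 9 genes had libraries that did not overlap with wild type, against 64.7% of all genes. The count was 3 of 9 for K754M against wild type, where 34.7% of all genes did not overlap, 4 of 9 for K754R, against 40.3%, and 1 of 9 between K754M and K754R, against 30.3%. Cdkn2b had 16.5 and 23.0 RPKM in Eed null mESC, against 5.84 and 11.3 RPKM in wild-type mESC, a log2 change of 1.21 ± 0.54 (adjusted p = 0.214 by limma). Cdkn2a had 20.5 and 25.1 RPKM in Eed null mESC, against 14.6 and 15.5 RPKM in wild-type mESC, a log2 change of 0.58 ± 0.31 (adjusted p = 0.293 by limma). Ccnd1 had 53.5 and 58.3 RPKM in Eed null mESC, against 30.2 and 43.0 RPKM in wild-type mESC, and Ccnd2 had 9.41 and 13.9 RPKM in Eed null mESC, against 6.04 and 8.78 RPKM in wild-type mESC, neither past the threshold. The change of Eed null in EB minus that in mESC was tested as a difference and called none of the 9 genes at a background of 14.7%, with 1 unadjusted p below 0.05 by limma, for Cdkn2c at 1.32 ± 0.57. The corresponding differences for K754M and K754R called none either, at backgrounds of 0.193% and 2.03%, with 1 and 0 unadjusted p below 0.05. Over all 22818 genes, an unadjusted p below 0.05 by limma was found for 6528 in the Eed null difference. It was found for 2054 in that of K754M and 3394 in that of K754R.

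Replicates of 1 group differed widely for several of the 9 genes in mESC. In K754R mESC, Ccnd2 had 8.68 and 30.5 RPKM, Cdkn2b 13.4 and 32.0, and Ccnd1 29.5 and 75.4, while Cdkn1b had 20.8 and 8.23 and Cdkn2c 3.33 and 1.27. The library with the high Ccnd2, Cdkn2b and Ccnd1 was the one with the low Cdkn1b and Cdkn2c. The summed level of the 22 fibroblast markers went with this split, at 518 and 1730 RPKM in the same K754R libraries. In K754M mESC the sums were 394 and 1054 RPKM, beside 6.59 and 18.2 RPKM of Ccnd2. In Eed null mESC they were 627 and 885 RPKM, and in CJ7 wild-type mESC 415 and 571 RPKM. Over the 14 mESC libraries, on log2 scales, the marker sum correlated with Ccnd2 at Pearson r = 0.954, with Cdkn2b at 0.921, with Ccnd1 at 0.772 and with Cdkn2a at 0.6998. After the group means were taken out, these were 0.976, 0.965, 0.846 and 0.741, and Cdkn1b and Cdkn2c ran against the sum at -0.892 and -0.894. Within groups, the summed levels of 9 neuroectoderm and 6 primed epiblast markers followed the same split, at 0.971 and 0.885 with Ccnd1 and -0.977 and -0.930 with Cdkn1b, so fibroblast markers were not the only list that moved with these genes. These are descriptions over libraries that share lines, a table and a culture system. In the 14 EB libraries the correlations with the fibroblast sum differed, for example -0.380 for Cdkn2b and -0.114 for Ccnd2. For Cdkn1b the value was 0.645 in EB and -0.692 in mESC. After the group means were taken out, the EB values were 0.455 for Cdkn2b, 0.145 for Ccnd2 and -0.6996 for Cdkn1b.

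**Figure D3:**
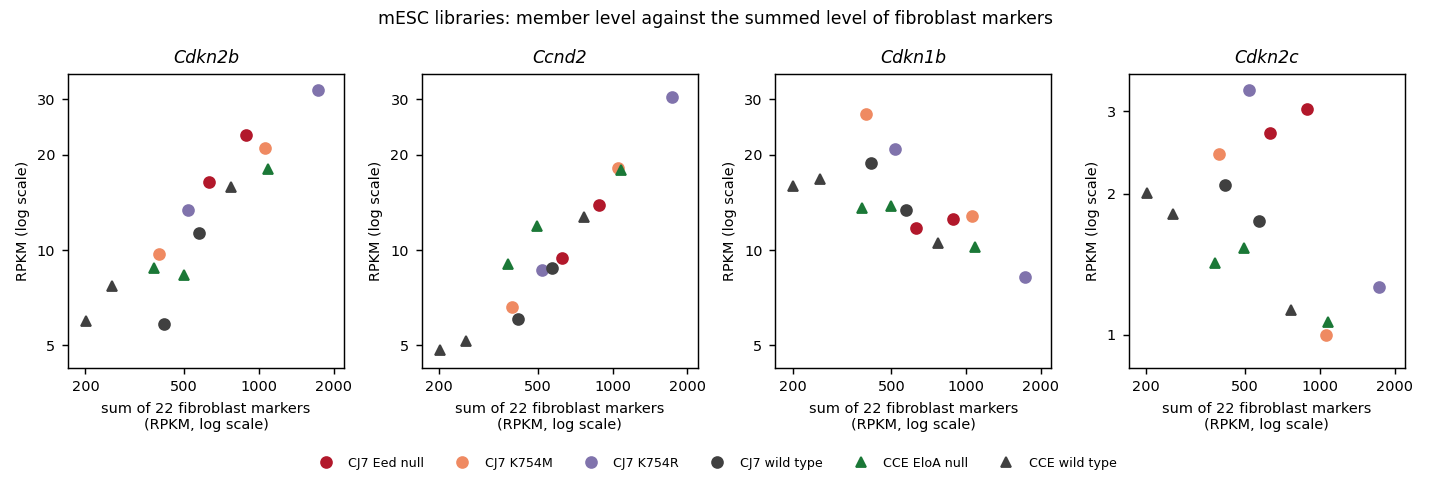
RPKM of Cdkn2b, Ccnd2, Cdkn1b and Cdkn2c against the summed RPKM of 22 fibroblast markers in the 14 mESC libraries, both on log scales; circles are CJ7 and triangles CCE, coloured by genotype. Ccnd2 and Cdkn2b were highest, at 30.5 and 32.0 RPKM, in the K754R library with the highest sum, 1730 RPKM, where Cdkn1b was lowest, at 8.23 RPKM.

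In Eed null mESC, 12 of 111 genes of the lists around the 9 genes were called (7 higher, 5 lower), beside 8.59% of all genes. The inhibitor list had 3 of 13 genes higher, Cdkn1c first, with 20.9 ± 0.773 RPKM in Eed null and 0.759 ± 0.318 RPKM in wild-type mESC (SD, n = 2 each). Cdk6, a kinase partner of the D-type cyclins, was 1 of 2 genes of its axis that fell, with 3.45 ± 0.502 RPKM in Eed null and 7.84 ± 0.00537 RPKM in wild-type mESC (SD, n = 2 each). Cdt1, which licenses replication origins, was 1 of 2 S phase genes that fell, by 0.98 on the log2 scale. Of 24 p53 genes 1 rose and 1 fell, Pmaip1 with a log2 change of 1.71 ± 0.28. Klhl9, a neighbour of Cdkn2a on chromosome 4, rose by a log2 change of 0.65 ± 0.14, and Dusp6, a phosphatase induced by MAPK signalling, by 1.90 ± 0.36. None of the 15 regulators of the Cdkn2a locus was called in Eed null mESC, and none of the genes of the 7 lists in K754M or K754R mESC.

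In CCE, EloA null and wild-type mESC had overlapping libraries for all 9 genes, while 24% of all genes did not overlap. Ccnd2 had 18.0, 9.05 and 11.9 RPKM in EloA null mESC, against 12.8, 5.15 and 4.85 RPKM in wild-type mESC, a log2 change of 0.82 ± 0.40 (SE, adjusted p = 0.341 by limma). Ccnd1 had 51.5, 44.4 and 45.5 RPKM in EloA null mESC, against 46.7, 33.5 and 34.6 RPKM in wild-type mESC, a log2 change of 0.31 ± 0.13 (adjusted p = 0.290 by limma). In both genes each EloA null library was above the wild-type library of the same replicate number. With the replicate number as a block, both were called by limma, Ccnd2 at 0.82 ± 0.14 (adjusted p = 0.0301) and Ccnd1 at 0.31 ± 0.06 (adjusted p = 0.0395). The count called over all genes was 2288 with the block and 619 without it, so these calls were not particular to the cyclins. No label pairs the libraries by number, and the correlation of same-numbered CCE libraries comes from these same data. Without wild-type replicate 1, Ccnd1 was called in the unpaired fit at 0.46 ± 0.07 (adjusted p = 0.0379 by limma). Fibroblast markers had the same order within pairs, with sums of 1083, 379 and 496 RPKM in EloA null mESC, against 768, 257 and 201 RPKM in wild-type mESC. With that sum as a covariate, the log2 change of Ccnd2 was 0.29 ± 0.09 (adjusted p = 0.119 by limma) and that of Ccnd1 0.15 ± 0.06 (adjusted p = 0.230 by limma). Cdkn2a was nearly identical, at 14.9, 12.2 and 9.32 RPKM in EloA null mESC, against 14.7, 12.3 and 9.16 RPKM in wild-type mESC. Of the lists, 1 gene of 24 of the p53 list rose, Perp, a p53 target of cell adhesion and death. Its log2 change was 0.61 ± 0.12, and none of the other 6 lists had a call. That was 1 of 109 genes over the 7 lists, beside 3.35% of all genes. The Eed null change in CJ7 minus the EloA null change in CCE called none of the 9 genes at a background of 13.6%, with 1 unadjusted p below 0.05 by limma, for Ccnd3 at 0.42 ± 0.16. Over all 21780 genes, 5920 had an unadjusted p below 0.05 by limma.

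The CCE EB groups gave no calls among the 9 genes either in the reported, unpaired fits. The background was 0% for pair A against wild type, 0.135% for pair B against wild type and 0.44% for pair B against pair A. In the same order, 1, 3 and 3 of the 9 genes had an unadjusted p below 0.05 by limma. Over all 17735 genes tested, 1166, 2746 and 3319 had one. Libraries did not overlap for 3 of the 9 genes in pair A against wild type, 7 of 9 in pair B against wild type and 4 of 9 in pair B against pair A, where 34.1%, 45.3% and 51.6% of all genes did not overlap. Both pairs were set against the same 2 wild-type libraries. Ccnd2 was lower in both mutant pairs, with 7.56 and 7.36 RPKM in pair A, 7.19 and 7.94 RPKM in pair B and 10.3 and 12.7 RPKM in wild type, log2 changes of -0.59 ± 0.14 and -0.57 ± 0.14 that did not pass (adjusted p = 0.708 and 0.149 by limma). Ccnd1 had 37.1 and 31.8 RPKM in pair A, 26.3 and 32.1 RPKM in pair B and 40.9 and 46.4 RPKM in wild type, with no overlap of either pair with wild type. Cdkn2a had 8.06 and 7.98 RPKM in pair B, against 4.49 and 4.98 RPKM in pair A, and the wild-type libraries lay between them at 6.01 and 5.83 RPKM. The log2 change of pair B against pair A was 0.70 ± 0.12 (adjusted p = 0.0767 by limma), and with the replicate block it was 0.70 ± 0.10 (adjusted p = 0.0297 by limma). With the block the count called over all genes was 1462, against 78 without it. Fibroblast markers summed to 283 and 230 RPKM in pair B, against 123 and 110 RPKM in pair A, and 154 and 156 RPKM in wild type. The comparison of pairs had no call among the 9 genes in the reported fit, nor with that sum as a covariate. Over all genes the count called fell from 78 to 0 with the covariate. Of the 7 lists around the 9 genes, none had a call in either pair against wild type, and pair B against pair A had 1, the p53-induced kinase Plk2, with 45.1 ± 0.792 RPKM in pair B and 25.1 ± 0.171 RPKM in pair A (SD, n = 2 each).

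The wild types of both lines differed in 2 of the 9 genes at each stage. Libraries did not overlap for 3 of the 9 genes in mESC, against 53.4% of all genes, and for 7 of the 9 in EB, against 45% of all genes. Line and any difference in library preparation cannot be told apart here. In mESC 1 gene was higher and 1 lower in CJ7, at a background of 22.7% called, 12.5% higher and 10.2% lower. Ccnd3 had 25.1 and 22.6 RPKM in CJ7 mESC, against 50.9, 49.8 and 52.0 RPKM in CCE mESC, a log2 change of -1.08 ± 0.11 (SE, adjusted p = 6.30e-05 by limma). The gap was wide and the libraries of a line lay close together, and Ccnd3 stayed below its CCE level in each mutant CJ7 mESC library too, at 26.3 to 37.4 RPKM. Cdkn1a had 19.7 and 15.0 RPKM in CJ7 mESC, against 10.1, 8.23 and 10.1 RPKM in CCE mESC, a log2 change of 0.83 ± 0.18 (adjusted p = 0.00795 by limma); without CJ7 replicate 1 the adjusted p was 0.0894. In EB both called genes were lower in CJ7, at a background of 6.82% called and 2.64% called lower. Ccnd1 had 21.4 and 16.4 RPKM in CJ7 EB, against 40.9 and 46.4 RPKM in CCE EB, a log2 change of -1.20 ± 0.20 (adjusted p = 0.00644 by limma), and without CJ7 replicate 2 the adjusted p was 0.0561. Ccnd2 had 6.62 and 5.95 RPKM in CJ7 EB, against 10.3 and 12.7 RPKM in CCE EB, a log2 change of -0.82 ± 0.19 (adjusted p = 0.0303 by limma), and its call was lost when any 1 of the 4 libraries was left out (adjusted p of 0.0669 to 0.160). Fibroblast markers summed to 98.2 and 74.7 RPKM in CJ7 EB, against 154 and 156 RPKM in CCE EB. With that sum as a covariate neither cyclin was called, at log2 changes of -0.80 ± 0.38 for Ccnd1 and -0.68 ± 0.39 for Ccnd2 (SE). The count called over all genes fell from 1366 to 1 with it, so the lost calls were not particular to the cyclins. The sums did not overlap, so line and fibroblast markers cannot be fully told apart in that fit.

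The targeted genes were checked in the same libraries. Eed had 22.2 ± 0.148 RPKM in Eed null mESC and 112 ± 10.01 RPKM in CJ7 wild-type mESC (SD, n = 2 each), and 16.03 ± 0.351 RPKM in Eed null EB and 52.5 ± 4.01 RPKM in CJ7 wild-type EB (SD, n = 2 each). Tceb3 had 6.84 ± 1.03 RPKM in EloA null mESC and 11.2 ± 0.525 RPKM in CCE wild-type mESC (SD, n = 3 each), and in EB it averaged 8.52 RPKM in pair A, 8.17 RPKM in pair B and 10.6 RPKM in CCE wild type. Depth, estimated from the RPKM that 1 read gives, was 11.1 to 18.2 M reads in CJ7 mESC, 24.4 to 46.4 in CCE mESC, 28.7 to 39.9 in CJ7 EB and 23.6 to 30.9 in CCE EB.

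The genes with the pattern most like each member were sought over all 28 libraries by Pearson r of log2(RPKM + 0.5), among 14084 genes with a mean of 1 RPKM or more, as a description with no test. Cdkn2b was most like Anxa1, at r = 0.963, and Mbnl1, at 0.953. Cdkn1b was most like Zfp157, at 0.954, and 1700049G17Rik, at 0.945, and Ccnd3 like Gltscr2, at 0.945, and Rnf40, at 0.929. Cdkn1a was most like Dusp1 and Tm9sf4, both at 0.929, Cdkn2c like Acss1, at 0.932, and Vax2, at 0.914, and Ccnd1 like Wtip, at 0.922, and Aebp1, at 0.855. Cdkn2a was most like Parm1, at 0.902, and Os9, at 0.884, while Ccnd2 reached 0.839 with Fads3 and 0.807 with Ehd2, and Cdkn2d 0.828 with 0610007P22Rik and 0.789 with Siva1. Many of these values follow the contrast between mESC and EB tables. In the GENCODE M21 annotation, which is newer than the files' build, genes on the opposite strand overlap Cdkn1a, Ccnd1, Ccnd2 and Ccnd3, and the use of strand in counting is not given in the sources used here, so reads of these 4 genes cannot be separated from those of their overlapping neighbours.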

How the data were processed

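The authors deposited RPKM values, in 1 table of 14 mESC libraries and 1 of 14 EB libraries. Per the submitters' processing notes, CASAVA 1.7, STAR and mm9 were used, without role or order; neither these notes nor the labels name a counting program, an annotation or a use of strand. From the deposited RPKM, log2(RPKM + 0.5) was tested with limma 3.58.1 (R 4.3.3, trended variance) over all genes with at least 0.25 RPKM in 2 libraries of the fit, 1 fit per line and stage, with Benjamini-Hochberg adjustment over all genes and a threshold of 0.05. Line contrasts used all libraries of a stage, and differences between stages all CJ7 libraries. Fold changes on this scale understate changes of low genes. The 9 genes and the lists were chosen with earlier results of these data known, and the rule for naming list genes was the largest absolute change among those called in a list. The limma code was tested on simulated data. Depth was estimated from the steps between low RPKM values with annotated gene lengths. Read counts of Cdkn2c and Cdkn2d used the length that brought their values in the 28 libraries nearest to whole reads. For Cdkn2c this was its annotated length of 2686 bases. The identifier of Cdkn2d is not in GENCODE M21, so its length of 1271 bases was fitted to these values. Depth and read counts are approximate. Alternatives changed the pseudocount, filter, scaling, libraries of the fit and replicate block, left out each library, and added the summed fibroblast markers as a covariate. Same-numbered libraries deviated together in CCE (r = 0.216 to 0.512 in mESC, 0.183 to 0.425 in EB). The reported fits did not use this pairing, and the replicate number entered as a block only among the alternatives. No 2 libraries were identical. Protein sequences were not used here.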

Additional observations from a re-analysis of the deposited data

Results flagged for a closer look

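In the reported fits none of the 9 cell cycle genes was called as different between effects, by limma's test of the difference itself. Some were called under alternatives given below. Genes of the surrounding lists were called in the reported fits. Those given here are the ones named in the comparisons above, not all that were called. For the Eed null stage difference 27 of 112 list genes were called, at a background of 14.7% of all genes, with 9 in the p53 list. For Eed null, the log2 change in EB minus that in mESC was 2.07 for Cbx7, 1.95 for Plk3, 1.88 for Etv5, 1.65 for Cdkn1c, 1.56 for Ccne1, 1.42 for Pmaip1, 1.38 for Cdk6 and 1.21 for Rrm2, so these had the higher change in EB. It was -2.28 for Nkd1, -1.85 for Tbx2 and -0.95 for Klhl9, with the lower change in EB; adjusted p-values over these 11 genes ran from 0.000520 for Nkd1 to 0.0213 for Etv5.

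Between mutants in mESC, 20 of 111 list genes were called, at a background of 13.6%. The Eed null change in CJ7 minus the EloA null change in CCE was 4.35 for Cdkn1c, 1.65 for Pmaip1, 0.51 for Klhl9, -0.92 for Cdk6 and -0.9985 for Cdt1, and, for the targeted genes themselves, -2.53 for Eed and 1.13 for Tceb3. For K754R 2 of 112 list genes were called, at a background of 2.03%, and the change in EB minus that in mESC was 1.74 for Cdkn1c and -2.15 for Pmaip1.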

How the results depend on the processing

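Cdkn2a, Cdkn2b and Cdkn1b in Eed null EB and Ccnd3 between wild-type mESC lines kept their calls under each alternative run, leaving out a library included. The number of the 9 genes called moved by over 1.5 times as follows, and in Eed null EB it was also 7 (Ccnd2 added) instead of 6 with median scaling, quantile normalization, 1 fit of the stage or the block, and 4 (Cdkn1a and Ccnd1 lost) with no filter or with the 2 groups alone. With 1 fit of all libraries of the stage it was 1 instead of 0 in Eed null mESC (Ccnd3), K754R mESC (Ccnd3), K754M EB (Cdkn2a) and pair B against pair A (Cdkn2a). With the 2 groups alone it was 1 in Eed null mESC (Cdkn2a). Between wild-type mESC it was 3 instead of 2 with quantile normalization (Cdkn2d added, adjusted p = 0.0327 by limma), a change of 1.5 times and not over it. With the replicate block it was 1 in Eed null mESC (Cdkn2b, adjusted p = 0.0183 by limma) and 2 in EloA null mESC. It was also 1 with the block in pair B against pair A and in the Eed null minus EloA null difference (Cdkn2b). The block changed no count of member calls by more than 1.5 times elsewhere. In CJ7 same-numbered libraries correlated at 0.0334 to 0.348 in mESC and 0.0116 to 0.229 in EB, lowest for Eed null with wild type. These ranges overlap those of CCE and no label gives a pairing, so whether the numbers pair libraries is not settled in either line. With the fibroblast covariate, added after the data were seen, the number of the 9 genes called was 3 in Eed null EB (6 as reported). It was 0 in K754R EB, 4 between wild-type mESC and 0 between wild-type EB. For the Eed null minus EloA null difference it was 2. For the Eed null stage difference it was 4 (Cdkn2b, Ccnd1 and Ccnd2 higher in EB, Cdkn1b lower). In these EB comparisons the marker sums of the compared groups did not overlap, so covariate and group cannot be fully told apart. Leaving out 1 library gave 0 to 1 called in EloA null mESC, 0 to 1 in K754R EB, 1 to 2 between wild-type mESC, 0 to 1 between wild-type EB and 4 to 8 in Eed null EB. Of 2187 changes of single genes under alternatives, 152 turned direction, none of them called. The largest reported change among these was 0.879, that of Cdkn2b in K754M EB. Over all genes, the count called in Eed null EB was 5867 and ran from 2319 with the fibroblast covariate to 7062 with the block, that in K754R EB was 1868 and ran from 0 with the covariate to 2950, that in Eed null mESC was 1805 and ran from 179 to 5211, and that in EloA null mESC was 619 and ran from 158 to 2288. Smaller counts moved by over 1.5 times as well, from 109 reported in K754M EB (0 to 434), 34 in K754R mESC (0 to 1747), 0 in K754M mESC (0 to 955), 2 in K754M against K754R mESC (0 to 841), 698 in K754M against K754R EB (21 to 1358), 24 in pair B against wild type (0 to 703), 78 in pair B against pair A (0 to 1462) and 1366 between wild-type EB (1 to 2109). Leaving out 1 library lowered the count to as few as 2867 from 4934 between wild-type mESC, to 1190 from 2957 for the Eed null minus EloA null difference, to 1729 from 3346 for the Eed null stage difference, to 119 from 463 for that of K754R and to 0 from 44 for that of K754M, and with the fibroblast covariate the counts of 3 of these differences were 4675 (Eed null minus EloA null), 1160 (K754R) and 156 (K754M). Summing rows of a symbol could change no value, since each symbol had 1 row. With 2 or 3 libraries per group, and few reads for Cdkn2c and Cdkn2d, small changes were not detectable.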
